A study of Rattus norvegicus with 57 samples.

Results

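The cytosolic heat shock genes are described here in the livers of rats given methapyrilene, an antihistamine that is toxic to rat liver. A list of 8 genes was named (Hsp90aa1, Hsph1, Dnajb1, Dnaja1, Hspb1, Hspa8, Bag3 and Hspa4), and a gene was measured only by probe sets annotated to that 1 symbol, taking the probe set of highest mean log2 signal. This left 6 genes of 14217 genes with such a probe set: Hsph1, Dnajb1, Dnaja1, Bag3, Hspb1 and Hspa4. All 6 passed the filter on low signals, which kept 10725 genes. Hsp90aa1 and Hspa8 were represented only by probe sets annotated to a second gene as well, so no level was assigned to them.

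Male Han Wistar rats, 8 to 10 weeks old, received methapyrilene by mouth each day at 30 or 80 mg/kg body weight, or the carboxymethylcellulose vehicle (0 mg/kg, called control). Livers were taken on days 4, 8 and 15, and on day 24 from rats dosed for 14 days and then left undosed for 10 days. Each of the 57 arrays holds the liver homogenate of 1 rat, with 5 rats in 9 of the 12 groups of dose and day and 4 rats in the other 3 groups. In a homogenate, fewer cells of a type and less RNA per cell cannot be told apart.

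Heat shock proteins are molecular chaperones that bind unfolded or misfolded proteins. HSP70 proteins bind exposed hydrophobic stretches in a cycle driven by ATP; DNAJ (HSP40) proteins bring them clients and stimulate their ATPase, and nucleotide exchange factors of the HSP110 family and BAG proteins release them. Small heat shock proteins hold unfolding clients without using ATP. Many of these genes are transcribed more when the transcription factor HSF1 binds heat shock elements, arrays of inverted GAA units, near their start sites.

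The promoter windows of 4 of the measured genes are shown because these genes changed and their windows differ in the heat shock elements they hold. Each is the RefSeq window of GRCr8 from 250 bases before to 50 bases after the annotated start, written 5′ to 3′ along the gene, with capitals marking every match to GAANNTTC or TTCNNGAA (2 neighbouring units; matches that adjoin overlap by 1 unit in the elements of 3 units).
Hsph1 promoter, chr12:10427118-10427417, plus strand: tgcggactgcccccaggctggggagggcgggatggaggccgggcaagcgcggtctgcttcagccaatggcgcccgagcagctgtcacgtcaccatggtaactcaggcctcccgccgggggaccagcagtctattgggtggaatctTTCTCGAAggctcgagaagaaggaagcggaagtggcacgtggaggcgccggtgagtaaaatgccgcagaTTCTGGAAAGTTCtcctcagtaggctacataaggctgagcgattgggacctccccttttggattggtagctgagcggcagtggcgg
Dnajb1 promoter, chr19:41431092-41431391, minus strand: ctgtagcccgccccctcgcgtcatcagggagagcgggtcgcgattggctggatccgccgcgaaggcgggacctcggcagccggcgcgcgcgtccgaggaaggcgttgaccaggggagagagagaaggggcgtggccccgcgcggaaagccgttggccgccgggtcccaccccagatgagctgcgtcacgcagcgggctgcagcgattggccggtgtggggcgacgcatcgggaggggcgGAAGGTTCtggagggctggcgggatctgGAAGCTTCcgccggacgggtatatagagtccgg
Dnaja1 promoter, chr5:60638154-60638453, plus strand: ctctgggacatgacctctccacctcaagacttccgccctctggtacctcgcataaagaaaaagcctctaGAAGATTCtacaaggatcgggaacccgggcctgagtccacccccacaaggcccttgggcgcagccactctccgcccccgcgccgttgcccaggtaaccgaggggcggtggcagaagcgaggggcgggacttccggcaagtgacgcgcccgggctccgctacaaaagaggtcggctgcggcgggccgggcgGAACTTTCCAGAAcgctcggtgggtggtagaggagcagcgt
Hspb1 promoter, chr12:26432252-26432551, minus strand: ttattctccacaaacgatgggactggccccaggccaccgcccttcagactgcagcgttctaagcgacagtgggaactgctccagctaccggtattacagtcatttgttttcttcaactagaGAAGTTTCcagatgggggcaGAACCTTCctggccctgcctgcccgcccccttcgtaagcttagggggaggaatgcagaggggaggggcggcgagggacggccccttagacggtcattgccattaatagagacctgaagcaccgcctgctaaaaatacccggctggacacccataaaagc

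RefSeq windows were found for 7 of the 8 listed genes, including all 6 measured ones, and not for Hsp90aa1. An element of 3 units (GAANNTTCNNGAA or TTCNNGAANNTTC) occurred in 2 of the 6 windows: in Hsph1 it began 36 bases before the start, and in Dnaja1 it began at base 10 after it. The same element occurred in 0.798% of 33469 windows of equal length. At least 2 units occurred in 5 of the 6 windows, against 15.9% of all windows, and Hspa4 was the gene without a match. The letters CCAAT, in either direction, occurred in 37.5% of all windows and in those of Hsph1, Dnajb1 and Bag3, while TATAAA, found in 14.2% of all windows, occurred in none of the 6. These matches are letters in a window and say nothing of binding.

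**Figure D1:**
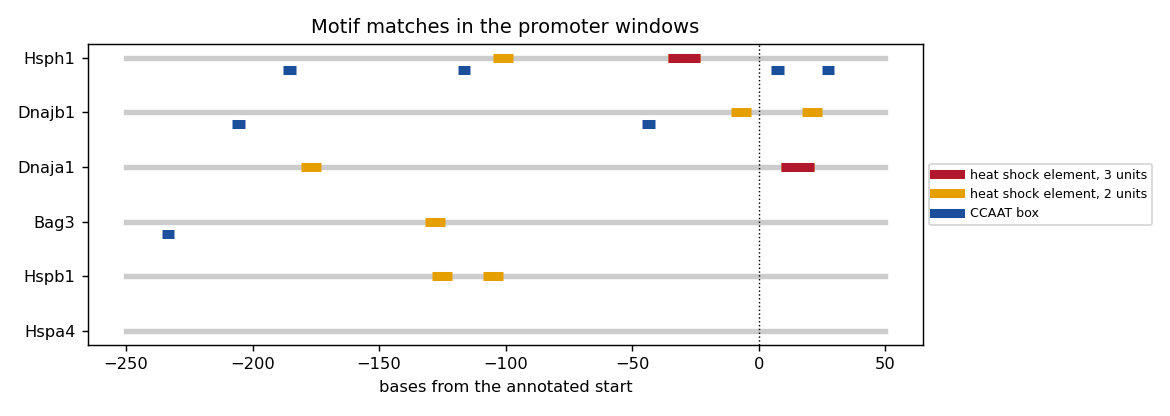
Motif matches along the 6 promoter windows. The x axis is the distance in bases from the annotated start, each grey bar is 1 window, and coloured blocks are matches to heat shock elements of 3 or 2 units and to CCAAT. Hsph1 and Dnaja1 hold an element of 3 units and Hspa4 holds no match.

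Markers of the liver's cells were read first. The 5 hepatocyte markers on the array had signals of 3031 or more in every array, and the 4 lymphocyte markers on the array stayed at 19.4 or less, with none past the filter. On day 15 the summed biliary markers were 896 to 1198 at 80 mg/kg, against 202 to 262 in controls. Of the 4 on the array 3 passed the filter, and 3 of 3 were higher by the test. Epcam made up most of these 80 mg/kg sums. Over all arrays it reached 956, against 115 for Krt19, 129 for Spp1 and 9.32 for Krt7. Of the 5 macrophage markers 4 were higher on day 15 (3 under quantile normalization, 2 at a common median), 5 on day 8 and 5 on day 24 (2 at a common median). Of the 5 hepatocyte markers 3 were lower (1 under quantile normalization, 5 at a common median). Of 5 stellate markers 1 was higher and 1 lower, and of 4 endothelial markers 0 were higher and 1 lower. Beside these counts, 38.8% of all genes were higher and 20.5% lower on day 15. In either direction 50.8% of all genes passed on day 8 and 10.2% on day 24. The ratio of the 3′ to the 5′ beta-actin control probe set, a sign of RNA quality, was 3.77 to 4.93 at 80 mg/kg on day 15, against 5.02 to 6.37 in controls, and the median signal of an array was 16.84 to 19.23, against 15.48 to 16.33. All 6 calls of day 15 held with the actin ratio as a covariate, and 5 of the 6 with arrays at a common median. The part of the marker shifts in the results below was not tested.

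On day 15, all 6 measured genes differed between 80 mg/kg and control: Hspb1 and Hspa4 were higher, and Hsph1, Dnajb1, Dnaja1 and Bag3 were lower. Of all 10725 genes, 59.2% passed the same test (limma, Benjamini-Hochberg adjusted p under 0.05), 38.8% higher and 20.5% lower. The median log2 fold change was -0.54 over the 6 genes and 0.16 over all genes. In all 6 the 5 rats at 80 mg/kg lay outside the range of the 5 controls, as did 30% of all genes on the higher side and 14.6% on the lower side.

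Hspb1 encodes HSP27, a small heat shock protein that holds unfolding proteins and binds the actin cytoskeleton. On day 15 its signals were 489, 732, 587, 543 and 602 in rats at 80 mg/kg, against 112, 75.95, 189, 148 and 101 in controls. The lowest treated rat was above the highest control. The log2 fold change was 2.29 ± 0.33 (SE, limma, adjusted p = 3.07e-08), a 4.90-fold rise. At 30 mg/kg on the same day Hspb1 averaged 217 ± 35.2 (SD, n = 5), and this group was 0.84 ± 0.33 above control on the log2 scale with an adjusted p of 0.126 from limma. When only the groups compared were fitted, the same difference passed (0.84 ± 0.20, limma, adjusted p = 0.0335).

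Hsph1 encodes HSP110, a nucleotide exchange factor for HSP70. Its signals on day 15 were 445, 412, 432, 331 and 393 at 80 mg/kg, against 486, 587, 721, 682.5 and 508 in controls. Every treated rat was below every control, and the log2 fold change was -0.56 ± 0.17 (limma, adjusted p = 0.00525). A second, dimmer probe set of Hsph1 gave -0.36 (adjusted p = 0.149), which did not pass.

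Dnajb1 encodes HSP40, the DNAJ partner of inducible HSP70. It had signals of 253, 232, 261, 223 and 240.1 at 80 mg/kg on day 15, against 325, 415, 484, 423 and 307 in controls. The groups did not overlap, and the fold change was -0.67 ± 0.15 (log2, limma, adjusted p = 8.91e-05). The second probe set of Dnajb1 gave -0.25 (adjusted p = 0.204) and did not pass.

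Dnaja1 encodes a further DNAJ protein, with a farnesylated tail. Its day 15 signals were 1403, 1245, 1369, 1149 and 1319 at 80 mg/kg, against 1660.4, 1729, 2012, 2030.4 and 1869.9 in controls. The gene fell by 0.52 ± 0.08 on the log2 scale (limma, adjusted p = 7.56e-08), and its second probe set gave -0.57 (adjusted p = 1.25e-06). With quantile normalization the value was -0.27, which still passed (adjusted p = 0.0017).

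Bag3 encodes a co-chaperone that releases HSP70 clients and directs them to autophagy. Its signals were 179, 161, 161, 145 and 169 at 80 mg/kg, against 192, 289, 252, 261 and 239 in controls. The groups lay apart by a small gap, and the log2 fold change was -0.59 ± 0.15 (limma, adjusted p = 0.000685).

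Hspa4 encodes a second HSP110 protein, also an exchange factor. Its signals were 398, 454, 395, 371 and 441 at 80 mg/kg on day 15, against 312, 327, 337, 320 and 338 in controls. All treated rats were above the controls, by 0.33 ± 0.09 on the log2 scale (limma, adjusted p = 0.00176). When arrays were set to the same median signal, the value was 0.19 and the adjusted p 0.114, so this call depends on the scaling.

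**Figure D2:**
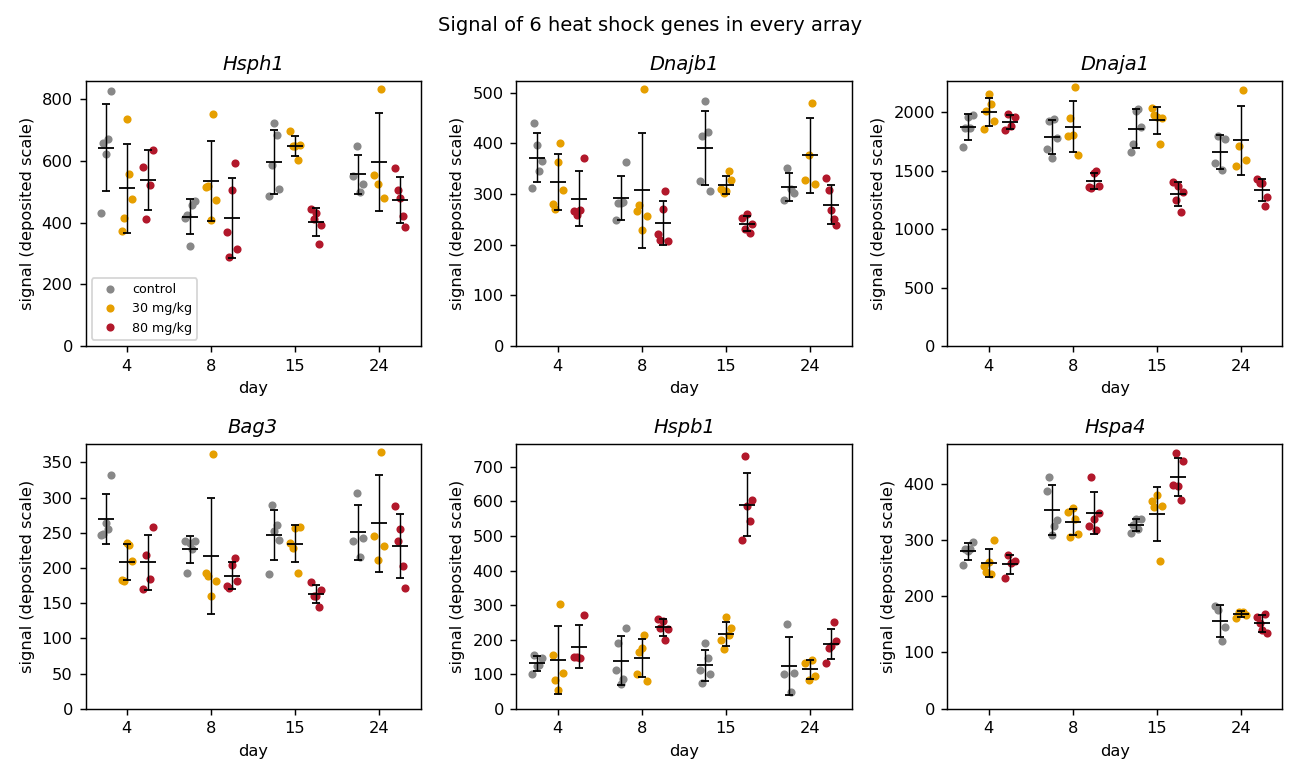
Signal of each of the 6 genes (y axis, on the deposited scale) by day (x axis). Points are single rats, coloured by dose, and black bars are the mean ± SD of a group. Hspb1 stands apart at 80 mg/kg on day 15, and Hspa4 is low in all 3 groups on day 24.

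The 80 mg/kg groups of day 15 also differed from those at 30 mg/kg in all 6 genes, with Hspb1 and Hspa4 higher and the other 4 lower, where 55.2% of all genes passed the test. The log2 differences ran from -0.69 ± 0.17 for Hsph1 (adjusted p = 0.000698) to 1.45 ± 0.33 for Hspb1 (limma, adjusted p = 0.000169). The Dnajb1 difference did not pass with the mean of its probe sets (-0.32, limma, adjusted p = 0.066) or with its second probe set (-0.25, adjusted p = 0.221). The Hspa4 difference (0.26 ± 0.09, adjusted p = 0.0142) was 0.16 and no longer passed without rat 4 at 30 mg/kg (adjusted p = 0.12), and 0.14 at a common median (limma, adjusted p = 0.288). These comparisons share the rats at 80 mg/kg with the ones above. In the fit of all arrays none of the 6 genes passed at 30 mg/kg against control on any day. Of all genes 0.783% passed on day 4, 0.233% on day 8, 4.6% on day 15 and 0.0932% on day 24. By limma's unadjusted p under 0.05 the number of the 6 genes was 1 on day 4 (Bag3), 0 on day 8, 1 on day 15 (Hspb1) and 0 on day 24. On day 4 Bag3 was at -0.37 ± 0.15 (limma, adjusted p = 0.243), and 80 against 30 mg/kg differed by -0.01 ± 0.16 (adjusted p = 0.962).

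The number of the 6 genes that passed against control differed between days, and control levels moved too. From day 8 to day 15 mean Hsph1 went from 419 to 597 in controls and from 414 to 403 at 80 mg/kg. Dnajb1 went from 292 to 391 in controls and from 243 to 242 at 80 mg/kg. Of the other lower genes, Dnaja1 went from 1412 to 1297 and Bag3 from 189 to 163 at 80 mg/kg. The effects of days 8 and 15 were not tested against each other. On day 4 at 80 mg/kg, 0 of the 6 genes passed (2 by the unadjusted p), where 27.5% of all genes did. Bag3 stood at -0.38 ± 0.16 and Dnajb1 at -0.36 ± 0.15 on the log2 scale, with adjusted p-values from limma of 0.064 and 0.0776. Without the rat numbered 5 at 80 mg/kg, which was high in Dnajb1 and Hspb1, the count was 2, and without control 1 it was 1.

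On day 8, 2 of the 6 genes passed at 80 mg/kg, where 50.8% of all genes did. Dnaja1 had signals of 1361, 1352, 1477, 1497 and 1372 at 80 mg/kg, against 1689, 1923, 1612, 1945 and 1777 in controls. Its groups did not overlap and the log2 fold change was -0.34 ± 0.08 (limma, adjusted p = 0.000219). With quantile normalization the Dnaja1 value was -0.12 and no longer passed (limma, adjusted p = 0.208). Dnajb1 (-0.27, adjusted p = 0.118) and Bag3 (-0.26, adjusted p = 0.14) did not pass as deposited. With quantile normalization they passed, at -0.35 and -0.36 (limma, adjusted p = 0.0437 and 0.0394). At a common median they also passed, at -0.49 and -0.48 (limma, adjusted p = 0.00455 and 0.00724). Hspb1 had signals of 259, 233, 255, 199.9 and 230.3 at 80 mg/kg, against 112, 191, 71.2, 85.6 and 234 in controls. These groups overlapped, with 1 control at the level of the treated rats, and the log2 fold change was 0.91 ± 0.33 (limma, adjusted p = 0.0173). That call was lost when control 3 or control 4 was left out, with values of 0.71 and 0.77, at a common median (0.69, adjusted p = 0.0792) and with the actin ratio as a covariate (0.71, limma, adjusted p = 0.0672).

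Day 24 followed 10 days without dosing, and 1 of the 6 genes passed at 80 mg/kg, where 10.2% of all genes did. Dnaja1 remained lower, with signals of 1427, 1392, 1391, 1198 and 1276 at 80 mg/kg, against 1567, 1797, 1503 and 1771 in controls. The groups did not overlap, and the log2 fold change was -0.31 ± 0.08 (limma, adjusted p = 0.0104). The Dnaja1 call was lost without control 3, at -0.27 (adjusted p = 0.0545), and with quantile normalization, at -0.24 (adjusted p = 0.0512). At a common median, which moved the median of all genes to -0.21, it was -0.56 and 4 of the 6 genes passed, all lower. Hspb1 averaged 187 ± 42.8 at 80 mg/kg (SD, n = 5), against 124 ± 83.9 in controls (SD, n = 4), and the log2 difference of 0.80 did not pass (limma, adjusted p = 0.124), though without control 3 it was 1.21 and passed (adjusted p = 0.0329). Between 80 and 30 mg/kg the counts over days 4, 8, 15 and 24 were 0 (0 also by limma's unadjusted p), 2, 6 and 1, where 20.1%, 46.1%, 55.2% and 6.77% of all genes passed. The Hspb1 difference of day 8 (0.77 ± 0.33, limma, adjusted p = 0.0479) lost its call when any 1 of 7 rats was left out (each of the 5 at 80 mg/kg, and rats 1 and 5 at 30 mg/kg), with values of 0.57 to 0.83.

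The effect of 80 mg/kg itself was compared between days. Against day 4, the day 15 effect was larger in Hspb1 by 1.88 ± 0.47 on the log2 scale (limma, adjusted p = 0.0024), higher in Hspa4 by 0.46 ± 0.13 (adjusted p = 0.00889) and lower in Dnaja1, at -0.55 ± 0.11 (adjusted p = 0.000188). These are 3 of the 6 genes, where 24.4% of all genes passed. The day 24 effect minus the day 15 effect was -1.49 ± 0.47 for Hspb1 (limma, adjusted p = 0.0091) and -0.35 ± 0.13 for Hspa4 (adjusted p = 0.028), 2 of the 6 genes where 42.7% of all genes passed. Leaving out control 3 of day 24 ended the Hspb1 call of that comparison (adjusted p = 0.0555), and each of 6 arrays, left out alone, ended that of Hspa4. The differences between days did not pass for Hsph1, Dnajb1 and Bag3, nor that of Dnaja1 between days 24 and 15. Between days 24 and 15, 4 of the 6 genes had an unadjusted p under 0.05, with Dnajb1 at 0.50 ± 0.21 (limma, adjusted p = 0.0523) and Bag3 at 0.46 ± 0.22 (adjusted p = 0.0838). Both passed with quantile normalization and with array weights (limma, adjusted p of 0.0201 to 0.0396). The second probe set of Dnajb1 had the opposite sign, at -0.13, and did not pass (limma, adjusted p = 0.706). At 30 mg/kg the differences between the same days passed in 0 of the 6 genes (1 in each by limma's unadjusted p), where 0.0653% and 1.09% of all genes passed.

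**Figure D3:**
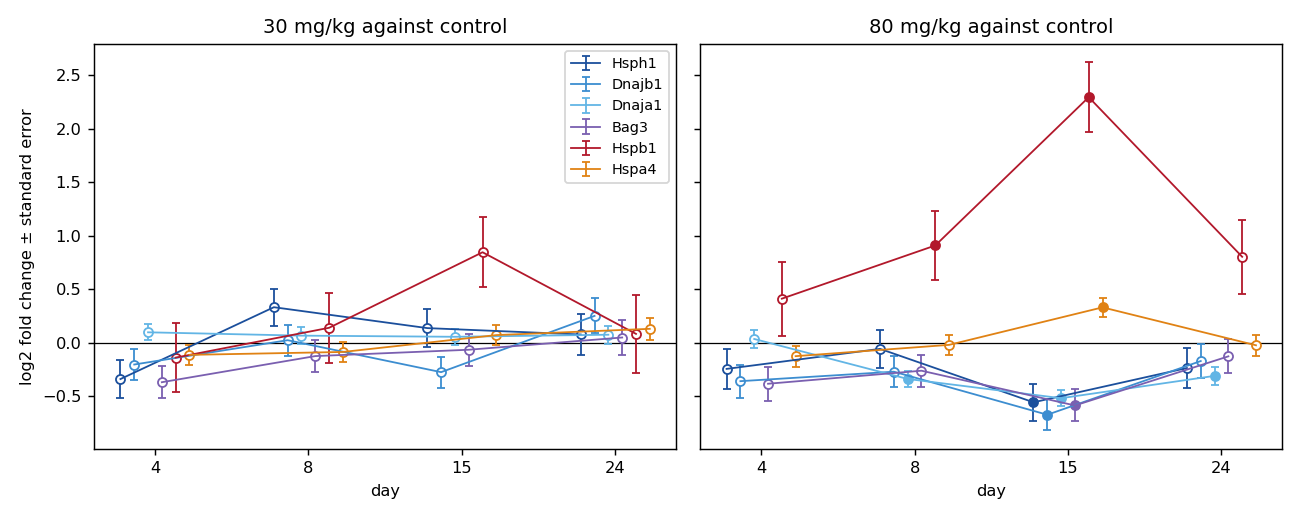
Log2 fold change ± standard error (y axis) of the 6 genes by day (x axis), with 30 mg/kg against control on the left and 80 mg/kg against control on the right. Filled points passed the test. Hspb1 reached 2.29 at 80 mg/kg on day 15, and no point at 30 mg/kg is filled.

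The levels were ordered over the 12 groups, and neighbouring groups in that order mostly overlapped. Of 11 neighbouring pairs, the ranges lay apart in 0 for Hsph1, Dnajb1 and Bag3, in 1 for Dnaja1 and Hspb1 and in 2 for Hspa4. The share of all genes with such gaps was not counted. For Dnaja1 the gap lay above the 3 groups at 80 mg/kg of days 8, 15 and 24, and for Hspb1 it lay below 80 mg/kg of day 15. The Dnaja1 gap was narrow, from 1496.91 (highest at 80 mg/kg on day 8) to 1502.64 (lowest control of day 24). Hspa4 was lowest in the 3 groups of day 24, at 152 ± 14.5 at 80 mg/kg (SD, n = 5), 168 ± 5.52 at 30 mg/kg (SD, n = 4) and 156 ± 28.7 in controls (SD, n = 4). On day 15 Hspa4 averaged 412 ± 34.5, 346 ± 47.5 and 327 ± 11.1 in these dose groups (SD, n = 5 each). The actin ratio was 5.84 to 6.76 at 80 mg/kg, 6.54 to 9.30 at 30 mg/kg and 6.04 to 9.76 in controls on day 24, and its part in the low Hspa4 level was not tested.

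By Pearson's r over the 12 group means, the genes most like Hspb1 were Dpp7, Cln3 and Ccdc71l (r of 0.96 each), and those most like Dnaja1 were Ugt2b35, Gstm2 and Ube2r2 (r of 0.95 to 0.96). Dnajb1 was most like Fn1, Sec62 and Tm9sf1, and Bag3 most like Tmem37, Slc17a2 and Slc22a17. Hsph1 was most like F5, Rab3gap1 and Atp2a2 (r of 0.83 to 0.86), and Hspa4 most like Actr2-ps1, Tjp1 and Tap2. The listed heat shock genes were left out of this search. Over the same group means Hsph1 had r = 0.84 with Dnajb1, above that with Atp2a2. These r values describe the same 57 arrays and carry no test.

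Rats of the same group also varied together, an aspect looked at after the group values had been seen. Each rat's log2 deviation from its group mean was correlated between genes over 57 rats, in 15 pairs, with permutation within groups. Hsph1 and Dnajb1 had r = 0.79 and rho = 0.80, and r was 0.78 without the 2 rats farthest from the median. The 6 pairs among Hsph1, Dnajb1, Dnaja1 and Bag3 had r of 0.63 to 0.79, and their two-sided permutation p adjusted over the 15 pairs was 3e-05 to 5e-05, where 1e-05 is the smallest unadjusted p these permutations can give. Leaving out the 2 rats farthest from the median of the gene named first lowered r in some pairs. It went from 0.63 to 0.53 for Dnajb1 with Dnaja1 and from 0.74 to 0.62 for Dnajb1 with Bag3. For Dnaja1 with Bag3 it went from 0.67 to 0.56. For Hsph1 it was 0.72 with Dnaja1 and 0.70 with Bag3. Within single days of 13 to 15 rats, r for these 6 pairs ran from 0.40 to 0.95. The share of all gene pairs with such r was not counted. Pairs with Hspa4 had adjusted permutation p-values of 0.104 or more, and of the pairs with Hspb1 only that with Dnajb1 passed by r (r = 0.35, adjusted permutation p = 0.0408) and not by rho (adjusted permutation p = 0.14). For deviations of the actin ratio and of the array median against those of the 6 genes, no correlation passed (12 relations, r of -0.30 to 0.17, lowest adjusted permutation p = 0.882).

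**Figure D4:**
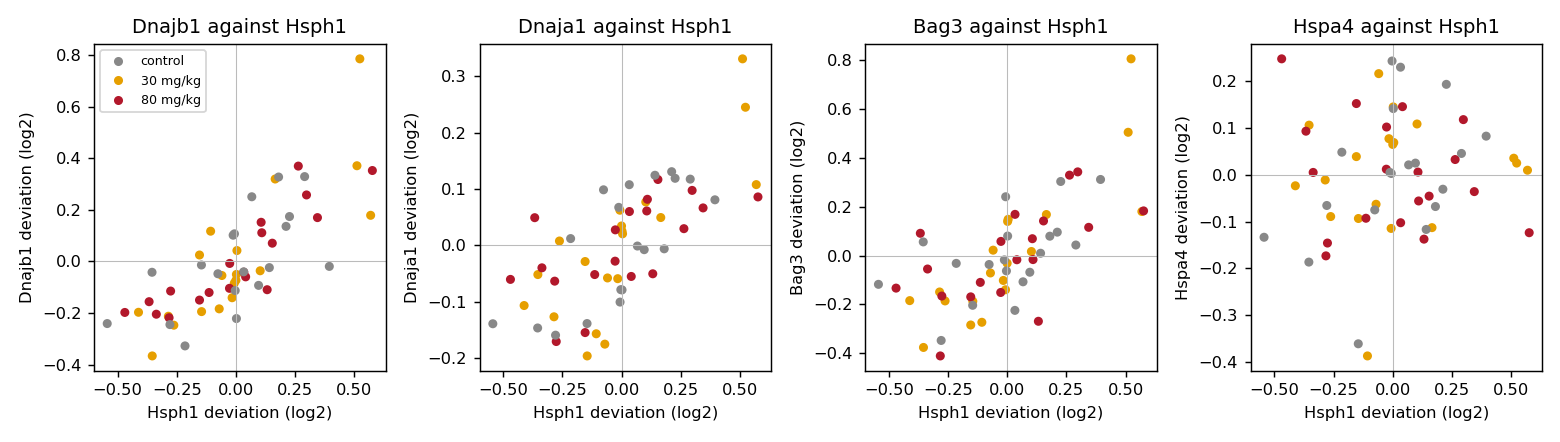
Deviation of each rat's log2 signal from its group mean, with Hsph1 on the x axis and Dnajb1, Dnaja1, Bag3 or Hspa4 on the y axis. Each of the 57 points is 1 rat, coloured by dose. The first 3 panels slope upward, at r = 0.79, 0.71 and 0.70, and the Hspa4 panel has r = 0.10.

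The other chaperones of the cell were counted on day 15 at 80 mg/kg against control, beside the 59.2% of all genes that passed. Of the 13 measured genes of TRiC, the cytosolic ring that folds actin and tubulin, and its helper prefoldin, 13 were higher and 0 lower, with a median log2 fold change of 0.81. Cct4 averaged 1789.6 ± 58.9 at 80 mg/kg and 962 ± 50.5 in controls (SD, n = 5 each), a log2 fold change of 0.90 ± 0.06 (limma, adjusted p = 3.69e-18). Cct7 and Cct8 were 0.87 higher and Cct3 0.86 higher. With quantile normalization 13 were higher, and at a common median 12 were. On day 4, 11 of the 13 were higher, beside 27.5% of all genes called, and on day 8 all 13, beside 50.8%. At a common median 8 were higher on each of these days. On day 24, 0 were higher and 0 lower, with a median of -0.04, beside 10.2% of all genes called. At a common median, which lowered the median of all genes on that day, 10 of the 13 were lower.

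Of 10 measured genes of HSP90 and its co-chaperones, 7 were higher and 0 lower. Fkbp5, a peptidyl-prolyl isomerase that binds steroid receptor complexes, averaged 124 ± 15.3 at 80 mg/kg and 59.0 ± 10.3 in controls (SD, n = 5 each), a log2 fold change of 1.08 ± 0.19. Ppid, Unc45a and Chordc1 were higher by 0.65, 0.56 and 0.48. Under quantile normalization the split of the list was 8 higher and 1 lower, and at a common median 5 and 1. The constitutive Hsp90ab1, chosen after its values were seen, was at 0.07 ± 0.09 (limma, adjusted p = 0.549).

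In the rest of the HSP70 system, 9 of 19 measured genes were higher and 4 lower. Hspbp1, an exchange factor, was higher by 1.13 ± 0.15, Hspa4l by 0.80 ± 0.25 and Dnaja2 by 0.59 ± 0.07, while Dnajb5 stood at -0.83 ± 0.18 and Dnajb6 at -0.29. With quantile normalization the split was 6 higher and 5 lower, and at a common median 5 higher and 6 lower. The inducible Hspa1a, chosen after its values were seen, had signals of 21.2 to 124 at 80 mg/kg, against 39.2 to 297 in controls, and its log2 fold change of -1.02 ± 0.61 did not pass (limma, adjusted p = 0.148).

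Of 6 other small heat shock genes, 2 were higher and 2 lower. Hspb8, a partner of Bag3, averaged 1038 ± 78.5 at 80 mg/kg and 462 ± 35.4 in controls (SD, n = 5 each), a log2 fold change of 1.17 ± 0.12. Cryab was higher by 0.50, and Hspb7 and Hspb6 were lower, at -0.79 and -0.63. Under either other scaling 1 was higher and 2 were lower. Among 7 genes of HSF1, its regulators and other known targets, 3 were higher and 1 lower. Atf3, a stress-induced transcription factor, was higher by 4.00 ± 0.55, Hsf1 itself by 0.65 ± 0.14 and Hmox1 by 0.44, and Hsbp1, which binds HSF1, stood at -0.45 ± 0.05.

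The chaperones of other compartments differed in direction. Of 9 mitochondrial chaperone and protease genes 7 were higher and 0 lower, led by Lonp1 at 1.50 ± 0.08 and Hspa9 at 1.02 ± 0.10. Of 11 endoplasmic reticulum chaperones 1 was higher (Dnajc3, 0.24) and 8 were lower, led by Sdf2l1 at -1.65 ± 0.13, Hyou1 at -1.26 ± 0.20, Pdia4 at -1.19 and Calr at -0.94. Under quantile normalization the mitochondrial split was 8 higher and 0 lower and the endoplasmic reticulum split 2 higher and 7 lower, and at a common median they were 6 and 1, and 0 and 10. At 30 mg/kg on day 15, 3 TRiC and prefoldin genes and 5 mitochondrial genes were higher and 4 endoplasmic reticulum genes were lower, beside the 4.6% of all genes. At a common median these counts were 0, 2 and 2.

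**Figure D5:**
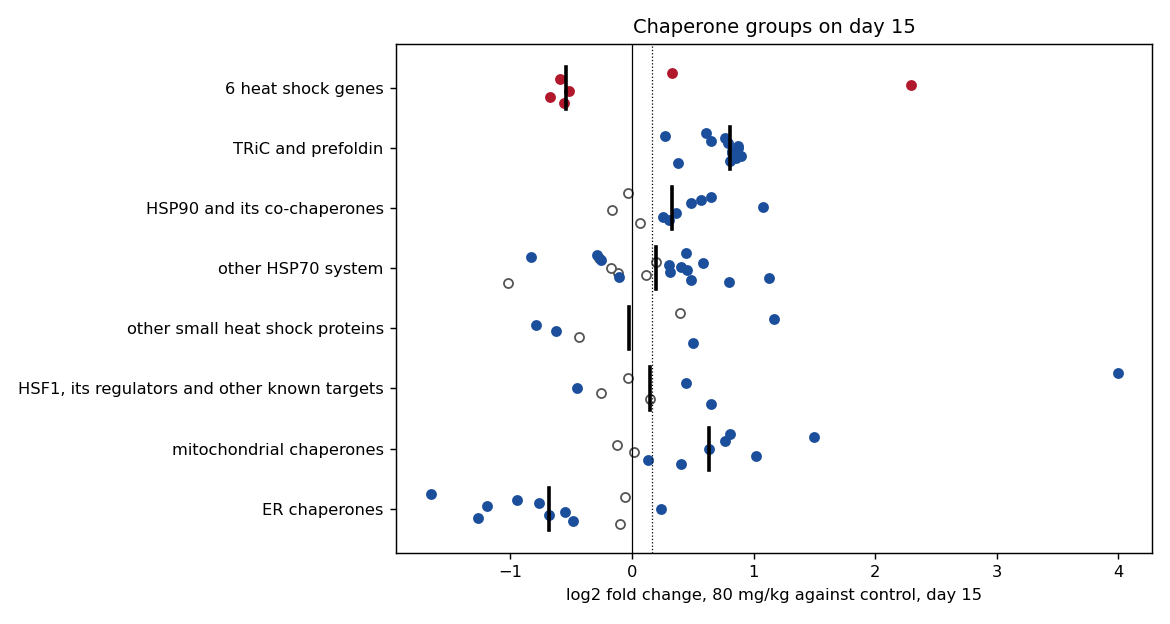
Log2 fold change of 80 mg/kg against control on day 15 (x axis) for the 6 heat shock genes (red, top row) and 7 other lists of chaperone genes. Each point is 1 gene, filled where it passed the test, the black bars are list medians and the dotted line is the median of all genes, 0.16.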

How the data were processed

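Signals of 31099 probe sets on 57 Affymetrix rat expression arrays were deposited by the authors as intensities on a linear scale, made with MAS5 per the submitters' processing notes; array trimmed means were 100.0 each. Of the probe sets 20832 have 1 gene symbol, 436 several and 9831 none. Each gene took its probe set of highest mean log2 intensity among those above 17.09, the median of all deposited values, in at least 4 arrays. Group means of the 12 groups were fitted to log2 values with limma 3.58.1 (R 4.3.3, moderated with a variance trend) over all arrays, and p-values were adjusted by the Benjamini-Hochberg method over 10725 genes. The fit was tested on simulated data. Members, lists and marker genes were chosen with earlier results of these data known. Beside the listed genes, up to 4 passing genes per list of largest change on day 15 and 1 of opposite sign were named. The 3 most alike per gene were named too, with the members left out. In 14 other settings the scaling, filter, probe set choice, model and arrays were varied. The number of rats limits the precision.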

Additional observations from a re-analysis of the deposited data

Results flagged for a closer look

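Within groups of 4 or 5 rats, 8 of 72 gene and group combinations held a rat far from the others on the linear scale. For independent, normally distributed values chance flags about 1 in 20. The 72 combinations are not independent, because several of the genes varied together among rats, so these shares cannot be compared directly. Rat 5 at 80 mg/kg on day 4 had a Dnajb1 signal of 371.82, against 258 to 268 in the others, and an Hspb1 signal of 272.56, against 146 to 149. Rat 4 at 30 mg/kg on day 8 had 507.61 for Dnajb1, against 228 to 278, and 362.16 for Bag3, against 159.6 to 193. Rat 4 at 30 mg/kg on day 15 was low, with 1727.47 for Dnaja1, against 1954 to 2032, and 262.38 for Hspa4, against 359 to 379. Bag3 was at 332.37 in control 5 of day 4, against 247 to 265, and at 193.44 in control 2 of day 8, against 228 to 239.

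The effect of 80 mg/kg differed between days in 5 of 12 tests of the difference, and that of 30 mg/kg in 0 of 12. Of all genes, 24.4% passed for day 15 minus day 4 and 42.7% for day 24 minus day 15 at 80 mg/kg. At 30 mg/kg these shares were 0.0653% and 1.09%. For 80 mg/kg, day 15 minus day 4 was -0.55 for Dnaja1, 1.88 for Hspb1 and 0.46 for Hspa4 (log2, limma). Its day 24 minus day 15 was -1.49 for Hspb1 and -0.35 for Hspa4.

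Probe sets shared by Hsp90aa1 and its pseudogene Hsp90aa1-ps17 were left out of the report's comparisons. At 80 mg/kg against control, the brighter of the 2 was higher by 0.26 on day 8 (limma, adjusted p = 0.0427), and the dimmer by 1.19 on day 8 (adjusted p = 7.49e-05) and by 0.59 on day 15 (adjusted p = 0.0388). The probe set shared by Hspa8 and Haus8l2 passed at 80 mg/kg against control on no day.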

How the results depend on the processing

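Of the 23 gene results that passed, 10 passed in every alternative and none changed sign. Hspb1, Bag3 and Hspa4 had no second probe set, so that alternative could not be tried for them. With a second probe set the day 15 calls of Hsph1 and Dnajb1 against control were lost. On day 15 the count of 6 genes at 80 mg/kg against control moved by no more than 1.5 times in any alternative. Scaling mattered most. The median of all genes on that day was 0.16 as deposited, 0.04 under quantile normalization and 0.03 under a common median, and the higher and lower calls over all genes were 4160 and 2194, 3321 and 2676, and 3099 and 2790. With quantile normalization the count of the 6 genes at 80 mg/kg was 1 on day 4 and 0 on day 24, 1 for 80 against 30 mg/kg on day 8, and 4 for the day 24 minus day 15 effect. For 80 against 30 mg/kg on day 8 that gene was Dnajb1 (-0.37, limma, adjusted p = 0.0374). Both genes that passed there as deposited, Dnaja1 (-0.17, adjusted p = 0.0582) and Hspb1 (0.66, adjusted p = 0.102), lost their calls. At a common median the count was 2 on day 4 and 4 on day 24, and 4 for 80 against 30 mg/kg on day 24, where the median of all genes moved to -0.19. For 80 against 30 mg/kg on day 8 it was 1 with no filter, with all probe sets, with no variance trend and with the replicate block. Same-numbered rats share only a number (54 pairs, r of -0.08 to 0.09). The block changed no other count by over 1.5 times. With it, Hspb1 at 80 against 30 mg/kg on day 8 did not pass (0.77, limma, adjusted p = 0.0561) and Dnajb1 for the day 24 minus day 15 effect of 80 mg/kg did (0.53, adjusted p = 0.0396). That Dnajb1 effect also passed with the stricter filter, only the groups compared and the actin covariate. With the gene's other probe set it was -0.13 and did not pass. Array weights gave 2 on day 4 and 4 for the day 24 minus day 15 effect. Fitting only the groups compared gave 1 at 30 mg/kg on day 15 (Hspb1, limma, adjusted p = 0.0335) and 0 for 80 against 30 mg/kg on day 24. The actin covariate gave 1 at 80 mg/kg on day 8. Leaving out 1 array gave 0 to 2 at 80 mg/kg on day 4, 1 to 3 on day 8, 1 to 4 for the day 24 minus day 15 effect and 1 to 4 for 80 against 30 mg/kg on day 8. The causes were not tested.

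Signs changed in 22 values under other settings and in 46 with 1 array left out, all of them log2 fold changes that passed neither way. With actin ratio as covariate, Dnajb1 (30 mg/kg against control on day 8) was -0.013 and Hspb1 (30 mg/kg against control on day 8) was -0.046. With array weights, Bag3 (30 mg/kg against control on day 24) was -0.032 and Dnaja1 (30 mg/kg effect day 24 minus day 15) was -0.059. With arrays at a common median, Dnaja1 (80 mg/kg against control on day 4) was -0.10, Hsph1 (80 against 30 mg/kg on day 4) was -0.034, Hspa4 (80 against 30 mg/kg on day 8) was -0.14 and Dnaja1 (30 mg/kg effect day 24 minus day 15) was -0.00021. With mean of the probe sets, Dnaja1 (30 mg/kg effect day 15 minus day 4) was 0.0066, Hsph1 (30 mg/kg effect day 24 minus day 15) was 0.047 and Dnaja1 (30 mg/kg effect day 24 minus day 15) was -0.10. With quantile normalization, Dnaja1 (80 against 30 mg/kg on day 4) was 0.041 and Dnaja1 (30 mg/kg effect day 15 minus day 4) was 0.011. With the gene's other probe set, an alternative chosen after seeing the data, Hsph1 (30 mg/kg effect day 24 minus day 15) was 0.15, Dnajb1 (80 mg/kg effect day 24 minus day 15) was -0.13, Dnajb1 (30 mg/kg effect day 15 minus day 4) was 0.048 and Dnaja1 (30 mg/kg against control on day 8) was -0.053. There too, Dnaja1 (30 mg/kg against control on day 24) was -0.060, Dnaja1 (30 mg/kg effect day 15 minus day 4) was 0.055 and Dnaja1 (30 mg/kg effect day 24 minus day 15) was -0.21. Without the 2 day 24 arrays of highest actin ratio, Hspb1 (30 mg/kg against control on day 24) was -0.22 and Hspa4 (30 mg/kg effect day 24 minus day 15) was -0.058. The ranges were Dnaja1 (80 mg/kg against control on day 4) -0.00058 to 0.054, Hspa4 (80 mg/kg against control on day 8) -0.083 to 0.037, Dnajb1 (30 mg/kg against control on day 8) -0.17 to 0.11 and Hspb1 (30 mg/kg against control on day 8) -0.064 to 0.36. Further ranges were Hsph1 (30 mg/kg effect day 24 minus day 15) -0.23 to 0.036, Dnajb1 (30 mg/kg effect day 15 minus day 4) -0.15 to 0.011, Dnaja1 (30 mg/kg effect day 24 minus day 15) -0.091 to 0.078 and Hspa4 (80 mg/kg against control on day 24) -0.15 to 0.056. Then came Hspb1 (30 mg/kg against control on day 24) -0.29 to 0.49, Bag3 (30 mg/kg against control on day 24) -0.12 to 0.15, Hspa4 (30 mg/kg effect day 24 minus day 15) -0.062 to 0.14 and Hsph1 (80 against 30 mg/kg on day 4) -0.0079 to 0.24. Others were Hspb1 (30 mg/kg against control on day 4) -0.48 to 0.14, Bag3 (80 against 30 mg/kg on day 4) -0.12 to 0.075, Hspa4 (80 against 30 mg/kg on day 4) -0.043 to 0.042 and Bag3 (80 against 30 mg/kg on day 8) -0.23 to 0.065. Others still were Bag3 (30 mg/kg against control on day 15) -0.15 to 0.0019, Hsph1 (30 mg/kg against control on day 24) -0.094 to 0.17, Dnaja1 (30 mg/kg against control on day 24) -0.036 to 0.13 and Bag3 (30 mg/kg effect day 24 minus day 15) -0.054 to 0.22. The last was Hsph1 (80 mg/kg against control on day 8) -0.20 to 0.059.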
